A study of Mus musculus with 12 samples.

Results

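The middle turn of the mouse cochlea was set against both of its ends. The 4 arrays labelled as cochlea middle turn were compared with the average of the 4 apical and the 4 basal arrays, so that the middle turn made up 4 of the 12 arrays of the series. All 12 samples came from male C57BL/6 mice, a common inbred strain, aged 6 weeks, with no treatment named. Per the labels the dissection took the organ of Corti together with the tissues of the lateral wall, and each cochlea was cut into apex, middle and base. The methods of the study add the neurons of the spiral ganglion. From each sample 25 ng of total RNA was labelled for a single-color exon array, on which a spot grows brighter with the amount of RNA that binds to its probe.

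The cochlea is a coiled tube that sorts sound by frequency along its length, with low tones detected at the apex and high tones at the base. Stiffness of the basilar membrane, size of the hair cells and thickness of the lateral wall all change along the coil, and many genes follow as a gradient. A gene on such a gradient has its middle turn between both ends. The question here was which genes leave the gradient, with the middle turn above both ends (a peak) or below both ends (a dip).

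The values are scaled signals, that is, spot intensities after each array was brought to a common 75th percentile, and the log2 values of all probes of a gene were averaged. The mean ± SD of each turn is over 4 arrays on the linear scale, and log2 differences come from the averaged log2 values. Levels were compared between turns for the same gene. Signals of different genes were set side by side only to tell faint genes from bright ones. Between 77.4% and 81.4% of the spots of an array were well above background, and log2 values of arrays of the same turn correlated across genes with r between 0.991 and 0.9948. Samples carry numbers within a turn, and 4 mice are mentioned, but no label ties a number to a mouse, so that p-values measure the spread between these samples. The 4 arrays of a turn shared 1 slide and 1 scan, with no other turn on it, so that turn and slide cannot be told apart. In whole tissue, fewer cells of a type and less RNA per cell cannot be told apart either.

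Few genes were called. With limma over all 12 arrays and Benjamini-Hochberg adjustment over 19505 genes, 225 genes (1.15%) were higher and 168 genes (0.861%) lower in the middle turn than the average of both ends at an adjusted p under 0.05, in all 2.01% of genes. The change reached 1.5-fold in 52 of the higher and 36 of the lower genes, and 2-fold in 9 of each. The median difference over all genes was 0.04 on the log2 scale. The split between higher and lower genes moved with the scaling, from 57.3% higher here to 33.5% after quantile normalization (87 higher, 173 lower), 46.3% after normexp background correction and 69.7% after scaling to the spike-in probes (23 higher, 10 lower). Scaling to the spike-in probes also moved the median of all genes to 0.38 for middle minus apex and to -0.24 for middle minus base, against 0.07 and 0.04 here.

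Being far from the average of both ends is not the same as standing outside them. The average is taken on the log2 scale, so that for a gene between the ends the direction of a call can depend on the scale. Of the 225 higher genes, 192 had a middle mean above both ends and 33 lay between them. Of the 168 lower genes, 99 lay below both ends and 69 between. A stricter call asked that the middle turn differ from the apex and from the base in the same direction, each at an adjusted p under 0.05. By this rule 190 genes peaked (0.974%) and 34 genes dipped (0.174%) in the middle turn. The difference from a single end was far more common, with 7.59% of genes higher and 4.42% lower than the apex, and 11.7% higher and 9.21% lower than the base.

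**Figure D1:**
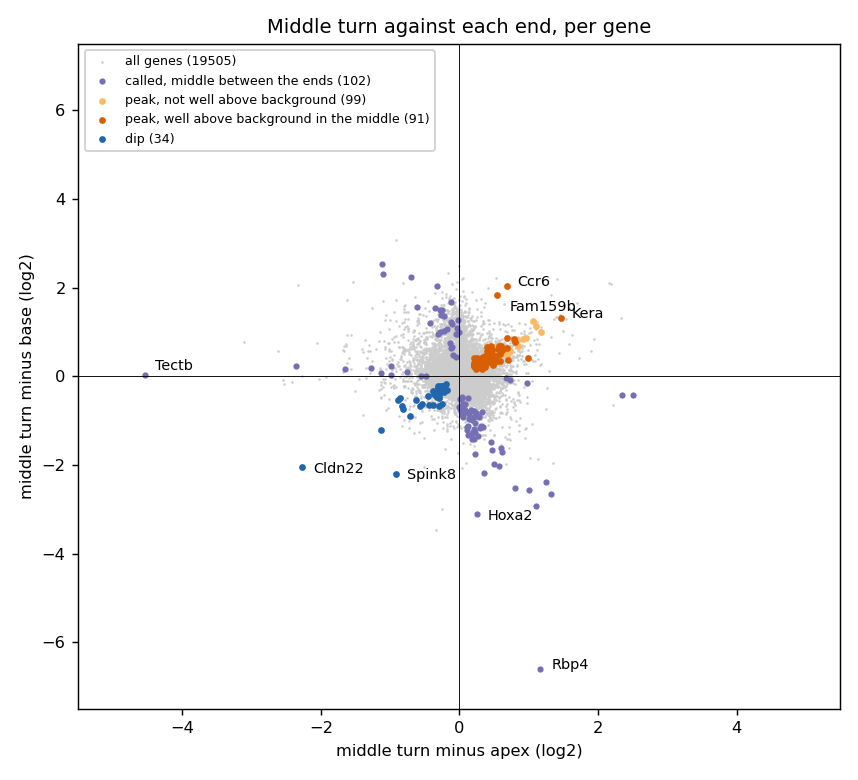
Middle turn minus apex (horizontal, log2) against middle turn minus base (vertical, log2) for each of 19505 genes. Peaks lie at the upper right and dips at the lower left, while the 102 called genes with a middle mean between the ends lie at the upper left and lower right, among them Rbp4, Tectb and Hoxa2.

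These counts leaned on single arrays. Without middle array 3 the higher genes rose to 1461, the lower genes to 295 and the peaks to 1140, and without basal array 3 to 857 higher and 328 lower genes. Without middle arrays 1, 2 or 4, the higher genes fell to 88, 125 and 98 and the lower genes to 49, 78 and 81. Without apical array 2 there were 113 higher, 100 lower, 92 peak and 18 dip genes, and without basal array 1 there were 149 higher and 98 lower. Peaks numbered 125 without apical array 3 or middle array 1 and 111 without middle array 4, and dips numbered 22 without apical array 1 or 3, 17 without middle array 1 and 21 without middle array 4. Of 55 called genes named in the text or in the lists below, 36 lost their call with scaling to the spike-in probes (adjusted p up to 0.30), and this loss is not repeated at each gene. The 19 that passed were Apoc3, Ccr6, Cldn22, En2, ENSMUST00000162998, Fam159b, Gm7247, Hoxa2, Kera, Kl, Krtap17-1, Mia1, Nrk, Olfr1066, Olfr1418, Rbp4, Rnf183, Spink8 and Tectb. Losses in other alternatives stand beside the genes described. These were quantile normalization, normexp (a model of the background in place of the subtraction in the files), probes well above background only, 16 added to each signal, linear means or the median of probes in place of the mean of log2 values, a fit without moderation of the variance, and signals under 20 set to 20 (the floor of 20).

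The dips were led by a claudin. Cldn22, a member of the claudin family of tight junction proteins, which seal the space between epithelial cells, in the middle turn stood 4.83-fold below the apex and 4.14-fold below the base. It is read by 1 probe, on chromosome 8 at 48910761 to 48910820 of mm9, plus strand, so that no other probe could be set beside it. The first 30 of its 60 bases are shown, as the identity of the sequence that carries the largest dip.
Cldn22: tttactgtgcataaactaggctgcgactgt
The 4 apical arrays read 1211, 1256, 878.5 and 1176. The 4 middle arrays read 240.7, 204.9, 270.8 and 215.9. The 4 basal arrays read 1125, 1041, 845.5 and 858.9. The 2 ends overlapped each other, and every middle array lay far below both. The difference from the average of ends was -2.16 ± 0.12 (SE, log2), with a limma adjusted p of 1.479e-05. Of 24 claudin genes measured, Cldn22 was the 1 lower gene and Cldn18 the 1 higher gene (0.41 on the log2 scale). Over all genes 0.861% were lower and 1.15% higher. The gene families counted here and below were chosen after the values of their leading genes were seen, so that such counts are no result about a family. Wwc2, whose probes start 3′ of it on the same chromosome (chromosome 8, 48913035 to 49075489), read 591 ± 18.2 at the apex, 613 ± 25.6 in the middle and 740 ± 27.0 at the base and was not called against the average of ends (adjusted p = 0.179).

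Water and ion transport gave further dips. Aqp5, a water channel of secretory epithelia, in the middle turn stood 1.76-fold below the apex and 1.68-fold below the base. Its apical arrays read 1883, 1985, 1902 and 2037, its middle arrays 923.3, 1053, 1244 and 1253, and its basal arrays 1627, 1840, 1750 and 2284. No middle array reached any array of the ends, and all 4 probes of the gene were lowest in the middle. The difference from the average of ends was -0.78 ± 0.10 (SE, log2; adjusted p = 0.00577). None of the other aquaporins among the 11 measured was called, against 2.01% of all genes.

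Slc26a7, an anion transporter, read 416.8, 377.3, 471.3 and 455.7 at the apex, 300.2, 339, 325.7 and 292.4 in the middle and 445.2, 401.4, 373.9 and 494.6 at the base. The ends were alike (difference 0.01 on the log2 scale, adjusted p = 0.961), and all 16 probes of the gene were lowest in the middle. The difference from the average of ends was -0.45 ± 0.08 (adjusted p = 0.0248). Without middle array 1 or 4 or basal array 1 this test no longer passed (adjusted p up to 0.088), and without middle array 4 the test against the apex did not either (adjusted p = 0.051). Of 9 Slc26a genes measured, Slc26a5 was the 1 higher gene (against 1.15% of all genes), and it lay between the ends.

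Genes for secreted proteins and for protease inhibitors dipped as well. Expi (now Wfdc18), a secreted protein with a whey acidic protein domain, the fold of many protease inhibitors, read 12230, 15440, 13430 and 16050 at the apex, 6607, 8650, 8282 and 8816 in the middle and 12510, 14650, 10370 and 13740 at the base. Both of its probes were lowest in the middle, and the difference from the average of ends was -0.74 ± 0.11 (adjusted p = 0.0108). It was the 1 called gene among 14 WAP four-disulfide core genes, against 2.01% of all genes. Mia1 (now Mia), a small secreted protein first known from melanoma and made by cartilage, fell from 7970 ± 757 at the apex to 4314 ± 373 in the middle and stood at 6208 ± 489 at the base. Its ends differed from each other (0.36 on the log2 scale, adjusted p = 0.00739), and the middle turn lay below both on all 4 probes (-0.71 ± 0.08, adjusted p = 0.003).

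Spink8, a Kazal-type protease inhibitor, read 39.88, 36.21, 47.94 and 54.35 at the apex, 17.8, 28.04, 26.03 and 23.05 in the middle and 79.75, 110.4, 78.66 and 190.3 at the base. The middle arrays lay below all others, but only 2 of the 3 probes were lowest in the middle, while the remaining probe was lowest at the apex. The difference from the average of ends was -1.55 ± 0.23 (adjusted p = 0.0092) and held without each array in turn. The test against the apex was lost without any apical array, without middle arrays 1, 2 or 4 and without basal array 2, with adjusted p up to 0.107. Spink8 was also no dip with quantile normalization, scaling to the spike-in probes, normexp, 16 added, linear means, the median of probes, the unmoderated fit or the floor of 20.

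Epithelial adhesion and membrane genes formed the next group by role. Anxa1, an annexin that binds membranes in the presence of calcium and tempers inflammation, read 3603, 3850, 4190 and 4154 at the apex, 2078, 2580, 3062 and 3322 in the middle and 3679, 4346, 3883 and 5025 at the base. All 10 of its probes were lowest in the middle, and the difference from the average of ends was -0.58 ± 0.12 (adjusted p = 0.0382). This call was lost without apical array 2, 3 or 4, middle array 1 or 2, or basal array 2 or 4 (adjusted p up to 0.0995), and the test against the apex was lost without any apical array or middle array 1 or 2 (adjusted p up to 0.0825). With the median of probes, the unmoderated fit or the floor of 20, the adjusted p of Anxa1 was 0.0661, 0.074 and 0.0631. Anxa2 was the other lower gene among 12 annexins, against 0.861% of all genes.

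Fermt1 (kindlin-1, which ties integrins to the cytoskeleton in epithelia) was 47.6 ± 5.29 at the apex, 32.0 ± 1.69 in the middle and 51.6 ± 8.81 at the base, with all 13 probes lowest in the middle (-0.62 ± 0.11, adjusted p = 0.0181). Without middle array 1 or 2 the call against the average of ends was lost (adjusted p up to 0.0567). With normexp the difference of Fermt1 shrank to -0.15 (adjusted p = 0.225) and with the floor of 20 to -0.34 (adjusted p = 0.0527). It was no dip with normexp, with probes well above background only, with the median of probes or with scaling to the spike-in probes.

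The remaining leading dips were a transcription factor, an inhibitor of signalling and a gene whose role is left out here. Foxp2, a forkhead transcription factor, fell from 48.4 ± 3.56 at the apex to 31.3 ± 2.62 in the middle and stood at 45.4 ± 2.88 at the base (-0.58 ± 0.07, adjusted p = 0.0032), with 13 of 15 probes lowest in the middle. The 2 brightest Foxp2 probes differed by -0.18 and 0.015. With normexp the difference of Foxp2 was -0.085 (adjusted p = 0.415) and it was no dip, and with the median of probes its adjusted p was 0.0787. Irak3, which dampens interleukin and Toll-like receptor signalling, was 178 ± 10.01, 138 ± 7.02 and 183 ± 15.7, with all 11 probes lowest in the middle (-0.38 ± 0.06, adjusted p = 0.0135; 0.0533 without middle array 1). Oit1 was 59.9 ± 7.72, 32.8 ± 2.71 and 46.7 ± 9.45 (-0.68 ± 0.12, adjusted p = 0.021). Without middle array 1, 2 or 4 the call of Oit1 was lost (adjusted p up to 0.0679), and without middle array 1 or 2 or basal array 2 or 4 its test against the base was lost (adjusted p up to 0.0891). With normexp the difference of Oit1 was -0.22 (adjusted p = 0.0883), with the median of probes -0.55 (adjusted p = 0.078), and neither of these nor the unmoderated fit left it a dip.

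**Figure D2:**
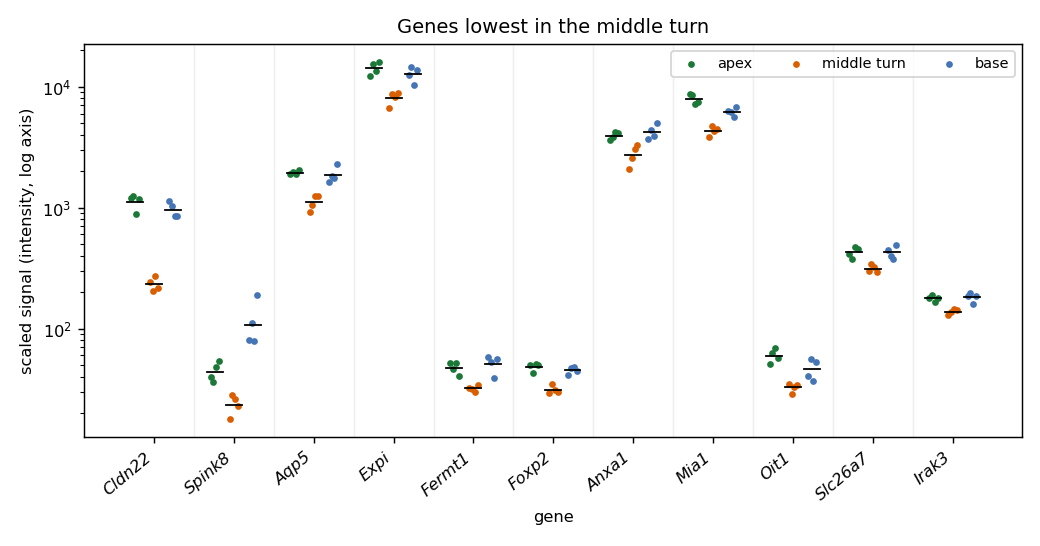
Scaled signal (log axis) of 11 leading dip genes on each of 12 arrays, in green for the apex, orange for the middle turn and blue for the base, with the mean of log2 values as a black line. In each of these genes the 4 middle arrays lie below all 8 arrays of the ends, by the widest margin in Cldn22.

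The probes behind 5 of these genes are shown because all probes of these genes were lowest in the middle. Each is 60 bases long, as the array design lists it, with positions on mm9.
Aqp5: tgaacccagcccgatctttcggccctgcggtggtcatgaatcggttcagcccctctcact
Expi: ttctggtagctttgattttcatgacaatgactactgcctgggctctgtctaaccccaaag
Mia1: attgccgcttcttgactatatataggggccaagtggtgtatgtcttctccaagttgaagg
Anxa1: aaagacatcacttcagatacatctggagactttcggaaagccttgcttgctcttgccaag
Slc26a7: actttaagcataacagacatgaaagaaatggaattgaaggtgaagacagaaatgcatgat
The Aqp5 probe lies on chromosome 15 (99423699 to 99423758, plus strand) and read 1446 at the apex, 828 in the middle and 1395 at the base. The Expi probe lies on chromosome 11 (83522642 to 83522701, plus strand) and read 11710, 6594 and 10620 in the same order. The Mia1 probe lies on chromosome 7 (27965748 to 27965807, minus strand) and read 7928, 4336 and 6123. On each the middle turn was the lowest of the 3. The Anxa1 probe, on chromosome 19 (20454830 to 20454889, minus strand), read 5785, 4043 and 6084. The Slc26a7 probe, on chromosome 4 (14449978 to 14450037, minus strand), read 164, 102 and 161. It had the largest dip of the 16 Slc26a7 probes (-0.67 on the log2 scale, against -0.45 for the gene). Each of the 5 probes was well above background on all 12 arrays.

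Of the 34 dips, 33 were bright, with 1 or more probes well above background on each of the 8 arrays of the ends, the exception being Ifna7, an interferon gene read by 1 probe between 7.67 and 32.1 on all arrays. In 27 dips no middle array overlapped an array of the ends, against 0.39% of all genes, and 28 were also called against the average of ends. Both counts follow in part from the rule for a dip, which uses these same arrays, and are no separate support. Only 6 dips lay 1.5-fold or more below the nearer end, and the median difference to the nearer end was -0.33 on the log2 scale. In 27 of the 33 bright dips the apex and base were not called different from each other, against 11860 of all 19505 genes, where 17.6% were called higher and 21.6% lower at the apex than at the base.

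Signalling genes stood among the smaller dips, which were picked by their role after their values were seen. Cxcl14, a chemokine of epithelia, read 107.8, 99.56, 147.4 and 177 at the apex, 59.78, 70.69, 106.8 and 87.6 in the middle and 126.9, 149, 157.9 and 159.7 at the base, so that middle array 3 overlapped the apex (-0.80 against the average of ends, adjusted p = 0.0481). Wnt7b, a Wnt ligand, was 1.25-fold lower than the nearer end, and Twsg1, which modulates bone morphogenetic proteins, 1.16-fold. Nr3c2, the mineralocorticoid receptor, which responds to aldosterone, was 1.13-fold lower. Transcription factors of mesenchyme were found too, with Prrx1 1.22-fold and Ebf2 1.27-fold below the nearer end, and so was Plod2, a collagen-modifying lysyl hydroxylase (1.19-fold). Ebf2 was not called against the average of ends (adjusted p = 0.0799). In the 12 fits without 1 array each, Cxcl14 stayed a dip in 1, Ebf2 and Nr3c2 in 2 and Prrx1 in 4. Twsg1 stayed a dip in 10, Plod2 in 11 and Wnt7b in 12. None of these genes was a dip with scaling to the spike-in probes, nor Cxcl14 with probes well above background only.

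Peaks were more frequent than dips, except with quantile normalization (50 peaks and 57 dips), and most were faint, though 46 of those 50 were bright. Of 190 peaks, 91 were bright, with 1 or more probes well above background on each of the 4 middle arrays, and 99 had no such probe. In 118 peaks the middle mean was under 20. The median middle signal was 8.42 in the peaks without such a probe, 35.3 in the 91 others and 182 in the dips. Of the 99 faint peaks 63 were read by a single probe, against 3237 of all 19505 genes.

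The faint peaks moved with the level of empty spots. Spots not well above background had a median scaled signal of 9.38, 9.06 and 9.35 on middle arrays 1, 2 and 4 and of 7.13 on middle array 3, against 6.87 to 7.68 at the apex and 6.83 to 8.16 at the base. Olfactory and vomeronasal receptor genes, which serve the nose, had the same pattern, with medians of 8.44, 8.002 and 8.31 on middle arrays 1, 2 and 4 and 6.01 on middle array 3, against 6.16 to 6.84 at the apex and 6.04 to 6.99 at the base. Of 1293 such genes, 34 were called higher, against 1.15% of all genes, and 0 lower, against 0.861% (their median difference was 0.23 on the log2 scale). Peaks numbered 40, against 0.974% of all genes, and 1 of the 40 was well above background. Olfr137 had the largest called difference, at 9.38 ± 2.39, 19.8 ± 5.75 and 8.49 ± 3.42 in apex, middle and base (1.15 ± 0.25, adjusted p = 0.0454), a call lost with quantile normalization, normexp, linear means, the median of probes, the unmoderated fit and the floor of 20 (0.12, adjusted p = 0.403). The part of the empty-spot level in the faint peaks was not tested.

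**Figure D3:**
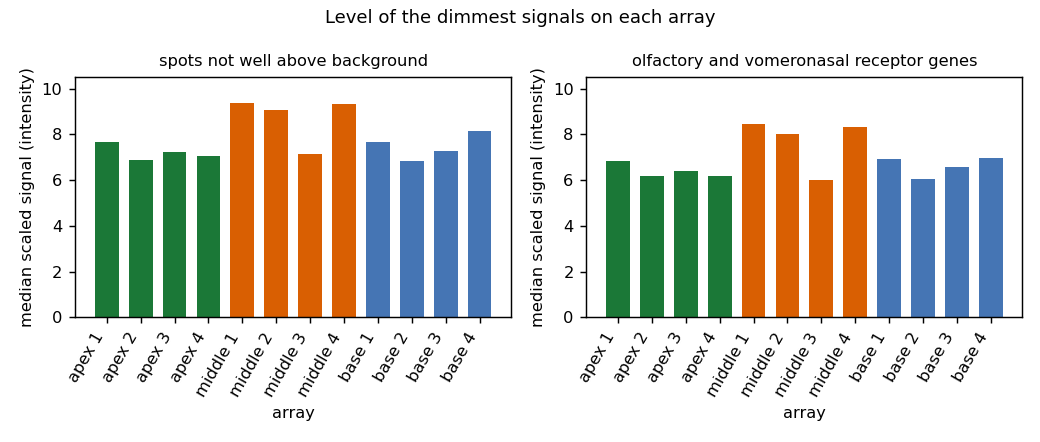
Median scaled signal on each of 12 arrays, for spots not well above background (left) and for olfactory and vomeronasal receptor genes (right), with bars from 0 in green (apex), orange (middle) and blue (base). Middle arrays 1, 2 and 4 stand above all other arrays in both panels and middle array 3 does not.

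When every scaled signal under 20 was set to 20, 76 peaks and 45 dips were found, and 44 of the 190 peaks and 30 of the 34 dips were among them. When probes were kept only if well above background on each of the 4 arrays of any turn, there were 70 peaks and 45 dips, of which 35 and 30 were shared with the first count. The peaks described next are bright ones. Keratins and beta defensins also held faint peaks, with 4 of 87 keratin and keratin-associated genes and 4 of 41 beta defensins called peaks, against 0.974% of all genes. Among these peaks only Defb6 was well above background.

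Kera was the leading peak. It encodes keratocan, a small leucine-rich proteoglycan of the cornea and other fibrous tissue, and its middle turn stood 2.76-fold above the apex and 2.49-fold above the base. The apical arrays read 57.07, 49.84, 59.01 and 80.75, the middle arrays 136.2, 212.6, 155.9 and 174.3, and the basal arrays 75.3, 79.84, 55.67 and 61.41. The ends overlapped each other and no middle array overlapped either. The difference from the average of ends was 1.39 ± 0.15 (SE, log2; adjusted p = 0.003), and both probes were highest in the middle. The probe printed here was chosen over the other because it lies further from the end of the transcript.
Kera: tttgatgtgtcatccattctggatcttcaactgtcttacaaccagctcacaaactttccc
It lies on chromosome 10 (97072192 to 97072251, plus strand) and read 32.6, 91.4 and 38.8 in apex, middle and base, well above background on 11 of 12 arrays.

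Membrane proteins and receptors followed. Tspan1, a tetraspanin of epithelial membranes, read 792.3, 747.4, 764.3 and 817.5 at the apex, 1059, 1183, 1214 and 1297 in the middle and 623.5, 819, 853.2 and 693.9 at the base. All 7 probes were highest in the middle, and the difference was 0.64 ± 0.09 (adjusted p = 0.0062). Kl, which encodes klotho, a co-receptor for hormones of the fibroblast growth factor family, read 327.4, 376.9, 314.4 and 316.1 at the apex, 455.6, 585.3, 500.1 and 509.7 in the middle and 326.1, 342.4, 345.5 and 334.9 at the base. The ends of Kl differed by 0.02 on the log2 scale (adjusted p = 0.883) and all 5 probes were highest in the middle (0.61 ± 0.07, adjusted p = 0.0032). For each of these a probe from inside the transcript is shown.
Tspan1: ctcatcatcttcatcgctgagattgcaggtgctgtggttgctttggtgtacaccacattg
Kl: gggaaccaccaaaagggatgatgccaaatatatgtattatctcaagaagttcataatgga
The Tspan1 probe (chromosome 4, 115836672 to 115836731, minus strand) read 422, 651 and 401 in apex, middle and base. The Kl probe (chromosome 5, 151783625 to 151783684, plus strand) read 304, 458 and 276.

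Ccr6, a chemokine receptor of lymphocytes and dendritic cells, was high at the apex, higher in the middle and low at the base. Its 1 probe read 515, 599.1, 424.8 and 374.5 at the apex, 628.1, 892.9, 738.8 and 786.7 in the middle and 154.9, 215.9, 219 and 156.6 at the base. The difference from the average of ends was 1.36 ± 0.15 (adjusted p = 0.003), with 1.60-fold over the apex and 4.11-fold over the base. The test against the apex was lost without apical array 1, 3 or 4 or middle array 2 or 4 (adjusted p up to 0.0765). Of 20 chemokine receptors measured, Ccrl1 (now Ackr4, a scavenging receptor) was the other higher gene (0.78, adjusted p = 0.0337), against 1.15% of all genes. Of the 12 B and T lymphocyte markers measured, none was called in either direction, against 2.01% of all genes.

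Fam159b (now Shisal2b), a membrane protein of the shisa family by its name, had the same order of turns, with 59.1 ± 4.94 at the apex, 86.6 ± 13.6 in the middle and 24.1 ± 2.39 at the base (1.19 ± 0.10, adjusted p = 3.32e-04). Its 3 probes were all highest in the middle, but 1 of them read 9.48 there and was well above background on no array. Another Fam159b probe read 144, 151 and 74.5 in apex, middle and base, so that its middle was close to the apex. The remaining probe read 233, 458 and 31.05. Nrk, a kinase of the germinal center family, was 17.1 ± 2.26, 29.7 ± 3.92 and 16.5 ± 1.55 (0.81 ± 0.10, adjusted p = 0.00442), with 21 of 24 probes highest in the middle. For Nrk only 4 of the 24 probes were well above background on each of the 4 middle arrays, and with probes well above background only its difference was 0.17 (adjusted p = 0.186). With the median of probes Fam159b was no peak.

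Developmental transcription factors were among the peaks. En2, a homeobox gene of the engrailed family, was 39.3 ± 6.96, 68.9 ± 14.8 and 39.9 ± 3.73 in apex, middle and base (0.78 ± 0.14, adjusted p = 0.0185; 0.0617 without middle array 4). Dlx2, a homeobox gene of the distal-less family, was 33.0 ± 3.68, 45.6 ± 5.05 and 30.4 ± 3.94 (0.53 ± 0.10, adjusted p = 0.0241). On 1 probe Dlx2 read 48.9, 91.25 and 54.4, but on another it was nearly flat, at 35.3, 36.8 and 32.15. The remaining Dlx2 probe (21.7, 29.1 and 17.3) was well above background on 1 array. Without middle array 1 or 2 the call of Dlx2 was lost (adjusted p up to 0.0833), and without apical array 2, 3 or 4 its test against the apex was lost (adjusted p up to 0.0681). The call of Dlx2 was also lost with normexp (0.29), with probes well above background only (0.51), with the median of probes (0.19) and with the floor of 20 (0.47), with adjusted p up to 0.321.

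The other leading peaks were weaker. Defb6, a beta defensin, was 19.6 ± 0.71, 31.9 ± 6.52 and 20.3 ± 0.55 (0.66 ± 0.10, adjusted p = 0.00958). Of its 2 probes, the bright Defb6 probe read 73.5, 93.8 and 76.3 (0.31), and the other, well above background on 0 arrays, 5.22, 11.3 and 5.42 (1.01). Defb6 was no peak with probes well above background only, with the floor of 20 (0.15, adjusted p = 0.194) or with scaling to the spike-in probes, and its call was lost with quantile normalization, normexp and linear means too. Myl4, a myosin light chain of embryonic and atrial muscle, was 125 ± 17.1, 176 ± 11.8 and 127 ± 13.7 (0.49 ± 0.09, adjusted p = 0.0256), and its call was lost without apical array 2, middle array 1, 2 or 4, or basal array 1 (adjusted p up to 0.0885), with the median of probes (adjusted p = 0.0679) and in the unmoderated fit (0.0528). Both 2010002M12Rik (now Ifit1bl2) and Gp2, a glycoprotein of secretory granules, passed against each end but not against the average of ends (adjusted p = 0.0639 and 0.0653). Their tests against the ends were also lost without any apical or basal array and without middle array 2 or 4, with adjusted p up to 0.124 and 0.128. The 1 bright probe of 2010002M12Rik was flat, at 672, 680 and 664, and its other probe, at 6.25, 14.5 and 5.79, was well above background on 0 arrays. Of the 9 Gp2 probes, 1 was well above background on all 12 arrays, and there middle array 2 read 717.6 against 344.4 to 349.4 on the other middle arrays. Both genes stayed peaks in only 4 of the alternatives that leave out no array, of 14 and 15.

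**Figure D4:**
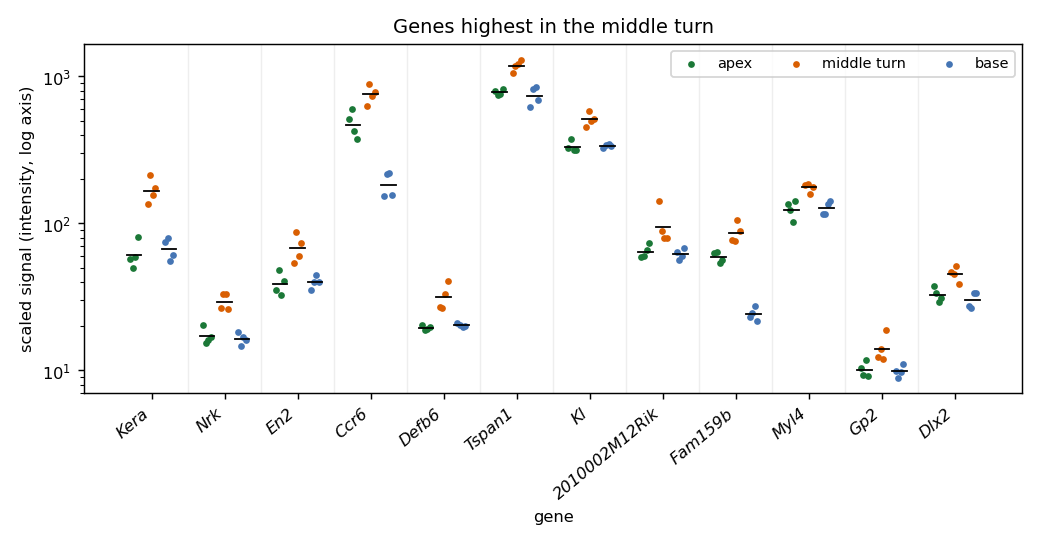
Scaled signal (log axis) of the 12 leading peak genes on each of 12 arrays, in green for the apex, orange for the middle turn and blue for the base, with the mean of log2 values as a black line. The 4 middle arrays lie above all 8 others in every gene, and Ccr6 and Fam159b are lower at the base than at the apex.

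Over the 91 bright peaks, 67 had no overlap of the middle arrays with the ends, against 1.36% of all genes, and 9 lay 1.5-fold or more above the nearer end. The rule for a peak uses these same arrays, so that little overlap follows in part from it and is no separate support. Their median difference to the nearer end was 0.31 on the log2 scale. The apex and base were not called different in 83 of the 91, against 11860 of all 19505 genes. The rules for peaks and dips may themselves favour genes with ends alike. Several smaller bright peaks were picked by role after their values were seen. Kcnj13, a potassium channel gene, was 1.52-fold above the nearer end, the neuropeptide gene Adcyap1 1.41-fold, the proton pump subunit gene Atp6v1b1 1.24-fold, the irritant-sensing channel gene Trpa1 1.24-fold and Gpx3, a secreted glutathione peroxidase, 1.27-fold. In the 12 fits without 1 array each, Kcnj13 stayed a peak in 4, Gpx3 in 7, Atp6v1b1 in 10 and both Adcyap1 and Trpa1 in 12. With probes well above background only, Atp6v1b1 and Trpa1 were no peaks. None of these genes was a peak with scaling to the spike-in probes.

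Some peaks and dips kept their shape, by the tests against each end, under nearly all choices of processing. Across 23 alternatives, 12 of them leaving out 1 array each, 6 of the 33 bright dips and 6 of the 91 bright peaks stayed dips or peaks every time. Each of the 23 gave a value for every gene, but scaling to the spike-in probes, which does so too, was not among them. The dips were Aqp5, Cldn22, Expi, Irak3, Mia1 and Phyhd1, and the peaks En2, Kera, Kl, Moxd1, Nrk and Tspan1. With scaling to the spike-in probes 4 of these dips and 5 of these peaks kept their shape, those lost being Irak3, Phyhd1 and Moxd1. The call against the average of ends is another test. Of the genes described above, En2 and Irak3 lost that call without 1 array, and Aqp5, Expi, Irak3 and Tspan1 with scaling to the spike-in probes. With probes well above background only, which is not among the 23, Nrk was lost and the other 11 were kept. The middle turn stayed on the same side of both ends in all 23 alternatives for 31 of the 33 bright dips and 78 of the 91 bright peaks, but for only 28 of the 99 faint peaks. These counts leave out scaling to the spike-in probes.

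The leading called genes with a middle turn between the ends are described next. Rbp4, the retinol carrier of blood plasma, read 27.8, 22.5, 30.58 and 35.63 at the apex, 42.71, 47.04, 87.41 and 98.99 in the middle and 5302, 7121, 4527 and 8898 at the base. The middle turn was thus close to the apex (2.25-fold higher) and 96.7-fold lower than the base (-2.71 ± 0.26 against the average of ends, adjusted p = 0.00121). Tectb, a protein of the tectorial membrane over the hair cells, was the reverse, at 717.7, 1285, 995.3 and 1072 at the apex, 41.07, 46.84, 42.04 and 41.13 in the middle and 41.54, 42.58, 37.61 and 45.76 at the base. Its middle turn and base overlapped, and the apex was 23.3-fold higher than the middle (-2.26 ± 0.13, adjusted p = 1.479e-05).

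Further genes of this kind changed near the base or near the apex. Hoxa2, a homeobox gene of the hindbrain and neural crest, was not well above background in the apex or middle and read 61.4 ± 3.74 at the base, at least 1.91-fold higher than the middle (adjusted p = 3.11e-04 against the average of ends). Rnf183, a ubiquitin ligase gene, was 31.9 ± 1.83, 41.5 ± 7.59 and 188 ± 30.3 (-0.91 ± 0.12, adjusted p = 0.00713). Tnc, the matrix glycoprotein tenascin, was 80.6 ± 26.5, 15.2 ± 0.25 and 12.9 ± 2.15 (-1.06 ± 0.17, adjusted p = 0.012), so that it had fallen by the middle turn. With normexp the calls of Hoxa2 (-0.37, adjusted p = 0.0623) and Tnc (-0.32, adjusted p = 0.0917) were lost.

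In the other direction, the middle turn was near the high end. Apoc3, an apolipoprotein, was 447 ± 40.5 at the apex, 357 ± 23.9 in the middle and 87.1 ± 4.43 at the base (0.86 ± 0.06, adjusted p = 2.45e-04). With the mean of linear probe signals the difference of Apoc3 was 0.11 (adjusted p = 0.22). Fmod, the collagen-binding proteoglycan fibromodulin, was 452 ± 49.0, 413 ± 29.3 and 134 ± 43.0 (0.77 ± 0.15, adjusted p = 0.0281), a call lost without apical array 2, middle array 1, 2 or 4, or basal array 1 or 2 (adjusted p up to 0.0887), in the unmoderated fit (0.0604) and with the floor of 20 (0.0527). Gm7247 and the transcript ENSMUST00000162998, whose probes neighbour each other on chromosome 14 (52168568 to 52189349 and 52189541 to 52189600), rose together from the apex, with 234 ± 31.5, 1209 ± 286 and 1625 ± 381 for the first (adjusted p = 0.0148) and 1194 ± 138, 6852 ± 1528 and 9159 ± 2048 for the second (adjusted p = 0.00868).

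Hair cell genes leaned toward the apex with a middle turn above the straight line on the log2 scale. Of 18 markers measured, 3 were called higher (against 1.15% of all genes), none lower and none a peak, and the median difference was 0.32 on the log2 scale. Slc26a5, the motor protein prestin of outer hair cells, was 347 ± 57.2, 211 ± 10.1 and 46.5 ± 12.7 (0.76 ± 0.17, adjusted p = 0.0452). Pou4f3, a hair cell transcription factor, was 193 ± 27.6, 177 ± 8.64 and 76.8 ± 12.7 (0.55 ± 0.11, adjusted p = 0.0288), and Myo7a, a stereocilia myosin, was 149 ± 11.3, 139 ± 5.73 and 86.9 ± 5.30 (0.28 ± 0.06, adjusted p = 0.0329). All 3 calls leaned on single arrays. Slc26a5 was lost without any apical array, middle array 1, 2 or 4, or basal array 1 (adjusted p up to 0.123), Pou4f3 without apical array 3 or 4, middle array 1, 2 or 4, or basal array 1 (up to 0.0928), and Myo7a without apical array 1 or 4, middle array 1, 2 or 4, or basal array 1 or 2 (up to 0.0949). Slc26a5 was also lost with quantile normalization, normexp (0.36), the unmoderated fit and the floor of 20 (adjusted p up to 0.087), Pou4f3 with the unmoderated fit and the floor of 20 (up to 0.059), and Myo7a with normexp (0.17), linear means (0.14) and the median of probes (up to 0.157).

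Supporting cell and membrane genes went both ways. Of 16 measured, Emilin2, a matrix protein of the basilar membrane, was called higher at 4063 ± 383, 1896 ± 379 and 325 ± 54.0 (0.71 ± 0.13, adjusted p = 0.0213; 0.0743 without middle array 4), and Tectb and Otoa were called lower. Over all genes 1.15% were called higher and 0.861% lower. On the linear scale the middle mean of Emilin2 lay below the average of its ends. Otoa, an anchor protein of the tectorial membrane, was 592 ± 63.3, 506 ± 30.3 and 875 ± 140 (-0.50 ± 0.10, adjusted p = 0.0283), lost without apical array 4, middle array 1, 2 or 4, or basal array 1 (adjusted p up to 0.0928), and with the median of probes or the unmoderated fit (up to 0.0607).

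Nerve genes had the highest list median. The 16 spiral ganglion neuron markers had a median difference of 0.65 on the log2 scale, against 0.04 over all genes, but only Prph, an intermediate filament of peripheral neurons, was called. It was also a peak, at 101 ± 10.9, 164 ± 14.2 and 128 ± 19.6 (0.53 ± 0.10, adjusted p = 0.0219), and lost its call without middle array 1 or 4 (adjusted p up to 0.0822) and with linear means (0.14, adjusted p = 0.422). The summed signal of the list ran from 43940 to 56860 over the apical arrays, 42300 to 74710 over the middle and 9265 to 38920 over the base, so that the apex and middle overlapped. The 12 Schwann and satellite glia markers had a median of 0.43, with none called against the average of ends and 1 bright peak, Gfra3. Among all genes 2.01% were called and 0.974% were peaks.

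Cartilage markers had a median difference of -0.26 on the log2 scale. Of 14 measured, 3 were called lower (against 0.861% of all genes), namely Col2a1 (515 ± 43.1, 491 ± 17.9 and 860 ± 80.1), Col9a3 (550 ± 28.9, 557 ± 31.8 and 902 ± 52.4) and Matn1 (66.1 ± 13.3, 30.9 ± 2.07 and 32.3 ± 4.03). Col2a1 encodes the main fibrillar collagen of cartilage and Col9a3 a chain of a collagen that sits on its fibrils, both high at the base, and Matn1, an adaptor of the cartilage matrix, was high at the apex. Matn1 was lost without apical array 2, middle array 1, 2 or 4, or basal array 2 or 4 (adjusted p up to 0.111), and with normexp (-0.15), linear means, the median of probes, the unmoderated fit or the floor of 20 (up to 0.278). With the median of probes Col2a1 (-0.31, adjusted p = 0.068) and Col9a3 (-0.12, adjusted p = 0.326) were lost. Over 39 collagen genes the median was -0.042 and 5 were lower (against 0.861% of all genes). Among them were Col4a3, of basement membranes (81 ± 6.49, 82.4 ± 4.12 and 138 ± 7.56), and Col8a1 (498 ± 40.3, 527 ± 23.8 and 897 ± 90.3). Col19a1 was higher as a peak (14.2 ± 1.59, 18.7 ± 1.56 and 13.97 ± 0.78). Without middle array 1 Col4a3 was lost (adjusted p = 0.054), and without middle array 1 or 2 Col19a1 was (adjusted p up to 0.0807). Col8a1 was lost without apical array 2 or 4, middle array 1, 2 or 4, or basal array 1 or 2 (adjusted p up to 0.12). Col4a3 was also lost with normexp (-0.13) and linear means (-0.13), with adjusted p up to 0.193, Col8a1 with linear means and the unmoderated fit (up to 0.056), and Col19a1 with normexp, probes well above background only (0.046, adjusted p = 0.867), 16 added, linear means and the floor of 20.

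Single members were called in several other lists. The shares among all genes were 1.15% higher and 0.861% lower. Ednrb, the endothelin receptor of melanocyte-like strial cells, was higher at 435 ± 30.03, 692 ± 50.9 and 707 ± 31.9 (adjusted p = 0.022; up to 0.0629 without middle array 1 or 4). Apoa4 was higher beside Apoc3 among 15 apolipoproteins (552 ± 35.6, 257 ± 26.2 and 51.7 ± 4.47, adjusted p = 0.00484), but the call of Apoa4 was lost with the median of probes (0.088, adjusted p = 0.586), normexp (0.27) and the floor of 20 (0.32). The middle mean of Apoa4 also lay below the average of its ends on the linear scale. Acta2, the actin of smooth muscle, was lower at 823 ± 49.3, 1008 ± 96.0 and 1908 ± 78.1 (adjusted p = 0.0298), lost without apical array 2, middle array 1 or 2, or basal array 1, 2 or 4 (adjusted p up to 0.0833), and with normexp (-0.20), probes well above background only (-0.23), linear means (-0.085), the median of probes (-0.13) and the floor of 20 (-0.25), with adjusted p up to 0.345. Bag3, a co-chaperone, was lower at 728 ± 27.8, 747 ± 24.6 and 1039 ± 51.4 (adjusted p = 0.0323), lost without apical array 2 or 3, middle array 1, 2 or 4, or basal array 1 or 2 (adjusted p up to 0.11), and with linear means or the median of probes (up to 0.167). Krtap17-1, a keratin-associated gene, was lower at 10.9 ± 7.07, 7.66 ± 1.35 and 84.4 ± 15.8 (adjusted p = 0.0119; 0.0667 with normexp). Among 14 small leucine-rich proteoglycan and tendon genes, Kera and Fmod were the called genes, both higher, and the median was 0.034.

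Several lists of other tissues and general programs held no gene called against the average of ends, where the share over all genes was 2.01%. At that share lists of this size can hold none, so this is no result about them. They were 80 oxidative phosphorylation subunits, 82 cytosolic ribosomal proteins, 36 histone genes, 10 strial marginal cell markers, 7 spiral ligament fibrocyte markers, 13 bone markers, 9 red blood cell markers, 11 macrophage markers, 10 endothelial markers and 21 immediate early genes. Against the apex alone, 58 of the 80 oxidative phosphorylation subunits were higher and 1 lower, where 7.59% and 4.42% of all genes were. Neutrophil and bone marrow markers had the lowest list median, at -0.44, with 0 of 13 called and a summed signal that ran from 1328 to 38920 over the apical arrays alone. S100a9, a granule protein of neutrophils, was 8065 ± 8858 at the apex, 2036 ± 2158 in the middle and 816 ± 277 at the base. The defining hair cell and strial genes were measured in the middle turn, with Slc26a5 at 211 and Slc12a2, the chloride importer of marginal cells, at 16430 ± 927.

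**Figure D5:**
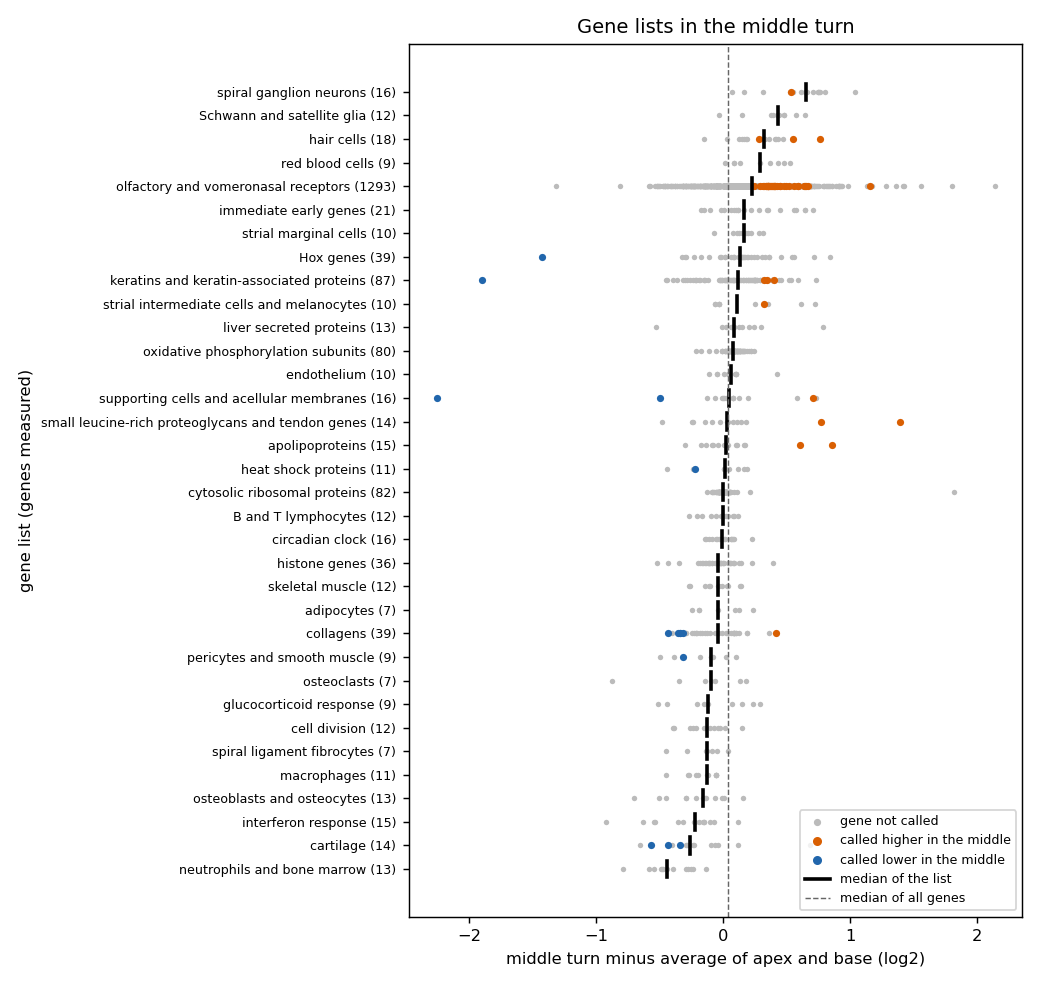
Difference of the middle turn from the average of apex and base (log2) for each gene of 34 lists, with called genes in orange (higher) or blue (lower), the median of a list as a black bar and the median of all genes (0.04) as a dashed line. Spiral ganglion neurons have the highest list median and neutrophils and bone marrow the lowest. Called genes are 3 of 18 for hair cells, 3 of 14 for cartilage and 34 of 1293 for olfactory and vomeronasal receptors, against 2.01% of all genes.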

How the data were processed

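RNA of 12 samples was hybridized to single-color exon arrays. The deposited files hold spot intensity values that the authors made with Agilent Feature Extraction 10.7.3.1, with the background subtracted and no normalization between arrays. The deposited value table held the same numbers in all 2170560 cells. The 7914 control spots of an array were dropped, and flags on 622 spots removed 119 of 165984 probes. No spot was saturated. Scaling brought the 75th percentile of every array, 534.6 to 722.1 before, to 641.3. Signals were log2 transformed without a pseudocount, repeated spots and then all probes sharing a gene name were averaged, and 19505 genes were tested. For dim genes the signal lies close to background, and the number of arrays limits the precision.

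limma 3.58.1 (lmFit, eBayes) in R 4.3.3 (files read by the data.table package, version 1.17.8) gave the contrasts, two-sided, with 1 shared spread and no batch term. Well above background is the flag of the authors' software. A bound ("at least") sets the brighter mean against the lowest signal well above background on the arrays of the dimmer group. Named were the 12 peaks and 12 dips farthest from the nearer end among bright genes with no overlap, 5 called genes each way between the ends, and up to 4 called genes (otherwise 2 bright ones) of each list. A gene with a bare transcript name counted and was not replaced, and 1 of the 12 dips is not reported here. Members and lists were chosen with earlier results of these data known. The contrasts with the apex and with the base share the middle arrays. Gene names are those of the array, and 18970 matched a current symbol in RefSeq's list. Positions are on mm9, as in the files. The fits were tested on simulated data. Alternatives were quantile, median and spike-in scaling, normexp (offset 50), probes well above background only, 16 added, linear means, median of probes, flagged probes kept, 3 or more probes, the deposited values of the series, limma's trend and robust options, an unmoderated fit, the sample number as a block and each array left out. A floor of 20 and bright genes only were added after seeing the data.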

Additional observations from a re-analysis of the deposited data

Results flagged for a closer look

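Among 57 named genes, 171 groups of 4 arrays were examined for an array far from the other 3, and 10 were found, where chance gives about 1 in 20. The value is the gap to the nearest other array over the range of the group, on the log2 scale. Among the dips, Foxp2 had apical array 2 at 43.0 against 49.8 to 50.6 (0.90). Among genes between the ends, ENSMUST00000162998 had apical array 1 at 1401 against 1113 to 1140 (0.893), Gm7247 had middle array 2 at 1636 against 1026 to 1092 (0.866), and Hoxa2 had middle array 3 at 5.15 against 7.55 to 8.10 (0.845). The low Hoxa2 value on middle array 3 goes with the lower level of empty spots on that array (7.13 against 9.06 to 9.38 on the other middle arrays), and so does Krtap17-1, with 5.66 against 8.01 to 8.49 (0.855). The part of that level in either value was not tested.

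Base array 4 stood apart in Acta2, at 2025 against 1857 to 1877 (0.871), and in Emilin2, at 406 against 292 to 304 (0.875). Col8a1 had middle array 1 at 492 against 534 to 541 (0.871). The other flags were at signals near background, with Krtap3-2 at 4.92 on basal array 2 against 5.62 to 5.76 (0.844) and Olfr137 at 13.6 on basal array 1 against 6.50 to 6.99 (0.902).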

How the results depend on the processing

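Counts of calls moved with the processing. Leaving out 1 array at a time gave 137 to 1756 genes called against the average of ends (393 with all arrays), 92 to 1140 peaks, 34 to 267 bright peaks and 17 to 48 dips. Quantile normalization gave 260 called genes, 50 peaks (46 bright) and 57 dips, and scaling to the spike-in probes gave 33 called genes, 78 peaks and 17 dips. With normexp there were 231 called genes, 66 peaks and 15 dips, and with probes well above background only there were 70 peaks. The mean of linear probe signals left 52 bright peaks. The floor of 20 left 244 called genes and 76 peaks, and requiring bright genes left 91 peaks. Krt39, a faint keratin gene called higher, turned to -0.27 with probes well above background only and to -0.032 with the floor (adjusted p = 0.527 and 0.777). The cause was not tested. The other 54 called named genes kept their direction in the alternatives run, except that 5 came to 0 with the floor. Of 55 called named genes, 27 passed without each of the 12 arrays. The deposited value table gave identical counts. Signal over background limits the faint peaks, of which 28 of 99 stayed on the same side of both ends in the 23 alternatives described above. Scaling to the spike-in probes is not among those.

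The sample numbers were tried as a replicate block. Deviations of same-numbered arrays correlated above 0.1 in 6 of 12 pairs (-0.04 to 0.23), with a mean r of 0.095 against -0.031 for other pairs. The numbers were not taken to pair the samples, although 8 of 12 arrays correlated best with their own number. With the block there were 502 called genes (270 higher, 232 lower), 271 peaks, 149 bright peaks and 57 dips, while 10 of the 55 called named genes did not pass (Dlx2, Fmod, Matn1, Myo7a, Olfr1066, Olfr1336, Otoa, Pou4f3, Slc26a5 and Slc26a7, adjusted p up to 0.0783). The sample number was also the place on the slide for all 12 arrays.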
